A study of Homo sapiens with 10 samples.

Results

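The genes described here are the 4 nuclear LIM-only (LMO) genes LMO1, LMO2, LMO3 and LMO4, the LIM-binding cofactor genes LDB1 and LDB2, and the neuronal basic helix-loop-helix (bHLH) genes NHLH1 and NHLH2. These 8 genes are set among 14232 named genes, which stand for the 22011 probe sets of the table. Each was taken from a probe set annotated with that symbol alone, selected by the highest mean level over all 10 arrays. As every one of the 8 had a single such probe set, the measured level decided nothing in the selection. The group was put together with earlier results of these data known, among them the low LMO3 level with the mutant construct, so the LMO3 values are given as a description without a test.

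RNA was hybridised to Affymetrix exon arrays from SH-SY5Y, an established human neuroblastoma cell line of sympathetic origin. The 5 SOD1(G93A) arrays (samples 3, 9, 12, 15 and 18) came from cells stably transfected with human superoxide dismutase 1 carrying the G93A change of familial amyotrophic lateral sclerosis. The 5 wild-type SOD1 arrays (samples 2, 8, 11, 14 and 17) came from cells stably transfected with the unchanged enzyme. Both kinds of cells were kept under Geneticin (G418), and no array of untransfected cells is used here. The promoter of the constructs, and whether a line was 1 clone or a pool, were not stated in the sources at hand. The construct and any other difference between the transfected lines therefore cannot be told apart, and as the labels do not speak of separate cultures, each p-value rests on a spread among samples that could be technical in origin.

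LMO proteins consist of little more than a pair of zinc-binding LIM domains, and they do not bind DNA themselves. They act as bridges: LDB1 or LDB2 holds the LIM domains and joins complexes together by dimerising, while bHLH factors such as TAL1, NHLH1 and NHLH2, their E protein partners and GATA factors contact the DNA. LMO proteins also compete with LIM-homeodomain transcription factors for LDB1. In neuroblastoma, LMO1 is a susceptibility gene and LMO3 has been described as a partner of NHLH2 (also called HEN2).

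Levels are log2 intensities after RMA, a procedure that corrects background, equalises the distributions of the arrays and summarises probes. A level belongs to its own probe set, so levels of different genes are placed only within the distribution of all probe sets, whose means had a lower quartile of 3.87, a median of 6.29 and an upper quartile of 8.01. Below the lower quartile log2 differences are compressed, and the table has no detection calls. Each difference is the SOD1(G93A) mean minus the wild-type mean, and its standard error (SE) is limma's moderated one. A gene is called where its p, adjusted by the Benjamini-Hochberg method over all 22011 probe sets, is 0.05 or less. By that rule 9.60% of the 14232 named genes were called: 4.03% were higher in SOD1(G93A) cells and 5.57% were lower. In 11.4% no array of one group lay within the range of the other. The labels also state an absolute log2 fold change of 1, which a call here does not require. Past both limits there were 168 named genes.

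Among the 8 genes, LMO3 and LDB2 were lower in SOD1(G93A) cells and the other 6 were not called. The 2 are 25% of the 8, beside 9.60% of all named genes, but LMO3 was chosen with its low level known, so nothing is read from this share. The groups did not overlap in LMO3 and LDB2 and overlapped in the other 6. In bulk RNA, fewer cells with a transcript and less transcript per cell cannot be told apart.

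**Figure D1:**
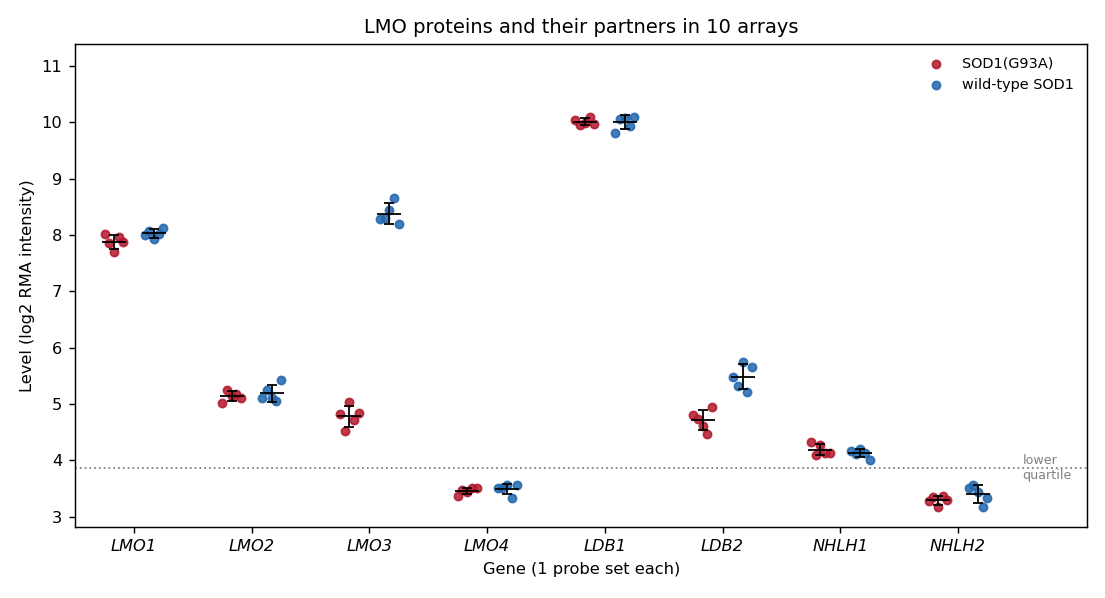
Levels (log2 RMA intensity) of the 8 genes in each array, SOD1(G93A) left of wild-type SOD1, with black bars for the mean and SD (n = 5 each) and a dotted line at the lower quartile of the probe set means. The groups are apart by 3.17 log2 units in LMO3 and by 0.26 in LDB2, and they overlap in the other 6 genes.

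LMO3, the LMO gene described mainly in the nervous system, had levels of 4.82, 4.52, 5.04, 4.71 and 4.84 in SOD1(G93A) samples 3, 9, 12, 15 and 18. In wild-type SOD1 samples 2, 8, 11, 14 and 17 its levels were 8.29, 8.31, 8.45, 8.67 and 8.21. Every SOD1(G93A) array lay below every wild-type array, and the highest SOD1(G93A) level was 3.17 log2 units under the lowest wild-type level. The means were 4.79 ± 0.19 in SOD1(G93A) cells and 8.38 ± 0.18 in wild-type cells (SD, n = 5 each), a difference of −3.60 (SE 0.11, 95% interval −3.84 to −3.36). On the linear scale LMO3 reached 8.26% of its wild-type level in SOD1(G93A) cells, a 12.1-fold lower value. The LMO3 probe set was brighter than 33.8% of all probe sets in SOD1(G93A) cells and brighter than 80.1% in wild-type cells, so its level with the mutant construct still lay above the lower quartile. Only 3 named genes, NNAT, CXCR4 and RXFP1, had a lower difference; they were picked out after their values were seen. Whether the remaining signal is LMO3 transcript or background cannot be read from a table without detection calls.

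RefSeq lists 5 transcription starts of LMO3 on the minus strand of chromosome 12, and the gene-level value does not tell which of them the cells used. Windows from 250 bases before to 50 bases after the start (RefSeq, GRCh38.p14) were found for 6 of the 8 genes, 12 windows in all; LMO2 and LDB2 had none in the table. Shown are the window of the most upstream LMO3 start (chr12:16608165-16608464, minus strand), that of the start numbered 3 from upstream, which has the only CAGCTG of the LMO3 windows (chr12:16606113-16606412, minus strand), and that of LMO1, the closest relative of LMO3 (chr11:8268738-8269037, minus strand). They are written 5′ to 3′ on the gene's strand. Capitals mark the E-box CANNTG, the letters bound by bHLH factors, and TAATTA, the letters bound by many homeodomain factors; both patterns are their own reverse complement, and CAGCTG is a special case of CANNTG.
LMO3, most upstream start: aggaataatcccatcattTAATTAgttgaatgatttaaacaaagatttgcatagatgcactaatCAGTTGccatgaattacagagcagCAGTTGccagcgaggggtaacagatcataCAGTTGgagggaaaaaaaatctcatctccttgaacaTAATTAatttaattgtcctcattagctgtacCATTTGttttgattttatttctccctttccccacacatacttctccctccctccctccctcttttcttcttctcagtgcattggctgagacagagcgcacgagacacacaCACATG
LMO3, start 3: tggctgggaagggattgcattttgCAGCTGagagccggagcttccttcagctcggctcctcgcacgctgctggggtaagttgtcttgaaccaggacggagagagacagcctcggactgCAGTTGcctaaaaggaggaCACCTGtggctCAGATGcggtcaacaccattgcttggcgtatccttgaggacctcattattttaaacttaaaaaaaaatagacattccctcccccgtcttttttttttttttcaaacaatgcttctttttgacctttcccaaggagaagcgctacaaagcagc
LMO1: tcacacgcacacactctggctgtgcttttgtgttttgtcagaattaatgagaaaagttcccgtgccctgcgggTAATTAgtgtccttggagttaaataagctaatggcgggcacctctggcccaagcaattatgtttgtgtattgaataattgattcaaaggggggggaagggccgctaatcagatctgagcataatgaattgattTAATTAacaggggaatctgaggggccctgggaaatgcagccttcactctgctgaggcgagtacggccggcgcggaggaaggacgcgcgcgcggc

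The most upstream LMO3 window held 5 E-boxes and that of start 3 held 4, while those of starts 2, 4 and 5 held 0, 1 and 0 and the LMO1 window held 0. CANNTG is common: it occurs in 68.7% of all 35116 windows of this length, with a mean of 1.29 per window. The shorter set CAGCTG occurs in 17.9% of them. The upstream LMO3 window and the LMO1 window each held 2 copies of TAATTA, at −232 and −97 in LMO3 and at −177 and −44 in LMO1, counted from the start with the base before it as −1. The other 4 LMO3 windows held 0 copies. TAATTA occurs in 4.84% of all windows and 2 or more copies in 0.416%. None of the 5 LMO3 windows held a GATA motif (AGATAA and its variant AGATAG, or TGATAA and its variant TGATAG, on either strand), which 25.0% of all windows hold. The upstream LMO3 window had a GC content of 40.0% and the LMO1 window one of 50.7%, against a median of 58.7% over all windows. These are matches of letters and not binding sites.

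LMO1, an oncogene of T-cell leukaemia and a neuroblastoma susceptibility gene, did not share the low level of its relative. Its levels were 8.02, 7.85, 7.69, 7.96 and 7.88 in SOD1(G93A) samples 3, 9, 12, 15 and 18, against 8.01, 8.08, 7.93, 8.02 and 8.13 in wild-type samples 2, 8, 11, 14 and 17. The groups overlapped, with SOD1(G93A) samples 3 and 15 inside the wild-type range. The means were 7.88 ± 0.13 in SOD1(G93A) cells and 8.03 ± 0.08 in wild-type cells (SD, n = 5 each). The difference of −0.15 (SE 0.07, 95% interval −0.31 to 0.0039) did not pass the threshold by limma (adjusted p = 0.283); permuting the arrays of LMO1 alone, an exact 2-sided test, gave an unadjusted p = 0.0556. The LMO1 probe set was brighter than 73.1% of probe sets in SOD1(G93A) cells and 75.2% in wild-type cells.

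LMO2, the bridge of the haematopoietic TAL1 and GATA complex, ranged from 5.02 to 5.25 in SOD1(G93A) arrays and from 5.06 to 5.43 in wild-type arrays. Its difference was −0.05 (95% interval −0.22 to 0.13, adjusted p = 0.833 by limma), and without wild-type sample 17 it was 0.010. LMO4, a widely expressed family member that binds the transcription factor DEAF1, ranged from 3.38 to 3.52 in SOD1(G93A) arrays and from 3.33 to 3.56 in wild-type arrays. Its difference was −0.04 (95% interval −0.17 to 0.10, adjusted p = 0.841 by limma), at a level below the lower quartile in every array, where a change could be hidden. Within the LMO family, therefore, none of the 3 genes beside LMO3 was called by limma, with or without a variance trend or array weights, or by the unmoderated test, and their intervals leave room for a fall of at most 0.31 on the log2 scale of these values.

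**Figure D2:**
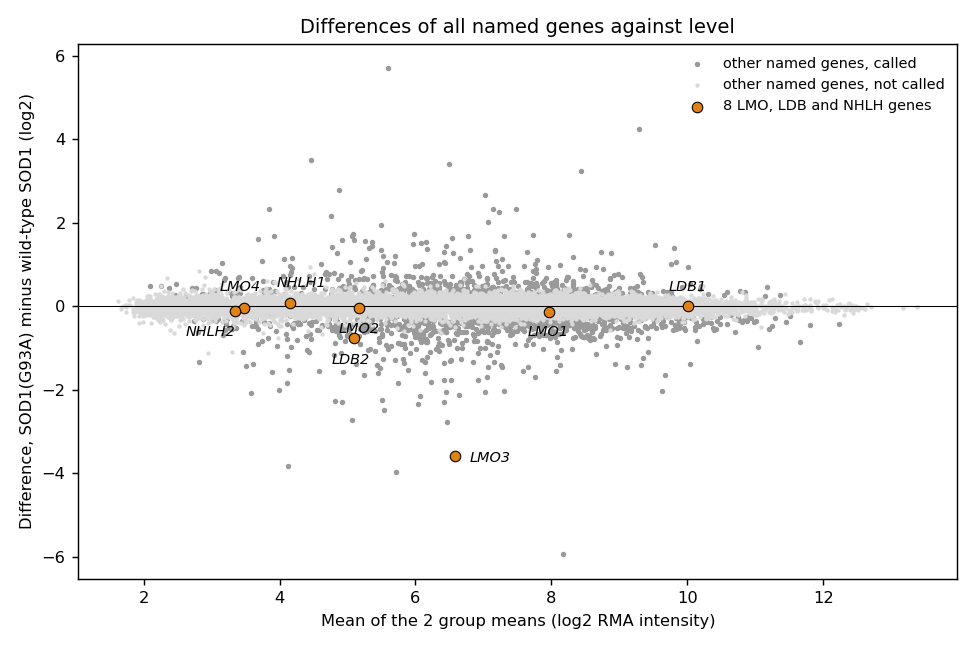
Difference of each of the 14232 named genes (log2, vertical axis) against the mean of its group means (log2 RMA intensity), with dark grey points for genes called by limma and orange points for the 8 genes. LMO3 lies at −3.60 and LDB2 at −0.77, and the other 6 lie between −0.15 and 0.07.

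The LDB genes encode the cofactors on which LMO complexes are built, and they differed from each other. LDB2 had levels of 4.80, 4.73, 4.62, 4.47 and 4.95 in SOD1(G93A) samples 3, 9, 12, 15 and 18. Its levels were 5.49, 5.33, 5.75, 5.21 and 5.66 in wild-type samples 2, 8, 11, 14 and 17. All SOD1(G93A) arrays lay below all wild-type arrays, with a gap of 0.26 between them. The means were 4.72 ± 0.18 in SOD1(G93A) cells and 5.49 ± 0.22 in wild-type cells (SD, n = 5 each). LDB2 thus fell by 0.77 on the log2 scale (SE 0.12, 95% interval −1.04 to −0.51, adjusted p = 0.00214 by limma), to 58.5% of the wild-type level. Of the 14232 named genes, 156 (1.10%) had a difference as low or lower. The probe set was dim in both groups, brighter than 33.2% of probe sets in SOD1(G93A) cells and 41.1% in wild-type cells.

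LDB1, the broadly expressed paralogue, ranged from 9.96 to 10.10 in SOD1(G93A) arrays and from 9.81 to 10.11 in wild-type arrays. Its means were 10.01 ± 0.06 in SOD1(G93A) cells and 10.00 ± 0.13 in wild-type cells (SD, n = 5 each), and its probe set was brighter than 93% of all probe sets in both. The difference was 0.0097 (95% interval −0.14 to 0.16, adjusted p = 0.969 by limma), and its sign turned when SOD1(G93A) sample 15 or wild-type sample 2 or 14 was left out. The interval leaves room for changes up to 0.16 in either direction.

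The neuronal bHLH genes NHLH1 and NHLH2, which are active in young neurons, were dim in both lines. NHLH1 ranged from 4.10 to 4.32 in SOD1(G93A) arrays and from 4.01 to 4.20 in wild-type arrays, with a difference of 0.07 (95% interval −0.07 to 0.20, adjusted p = 0.672 by limma). NHLH2, described as the LMO3 partner in neuroblastoma, ranged from 3.17 to 3.37 in SOD1(G93A) arrays and from 3.18 to 3.57 in wild-type arrays. Its difference was −0.11 (95% interval −0.29 to 0.06, adjusted p = 0.529 by limma). NHLH2 lay below the lower quartile in every array, so a change in a low number of transcripts may not be visible.

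Beyond these 8 genes, 8 lists of genes whose proteins work with, compete with or resemble LMO and LDB proteins held 71 genes, of which 62 had a probe set with a single symbol. Of the 62, 13 were called, 5 higher and 8 lower in SOD1(G93A) cells. This is 21.0%, beside 9.60% of all named genes, which is also the background for the count of each list. The lists were chosen with earlier results of these data known, so nothing is read from this share or from the shares of single lists. The groups did not overlap in 10 of the 62, all of them called, beside 11.4% of all named genes. The count rests on single arrays: without wild-type sample 14 it was 8, with 3 higher and 5 lower. The higher genes also numbered 3 without SOD1(G93A) sample 15 or wild-type sample 2, and the lower genes 5 without wild-type sample 11 or 17, in the unmoderated test or among probe sets above the median. The median difference of the 62 was −0.03, against −0.0043 over all named genes.

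**Figure D3:**
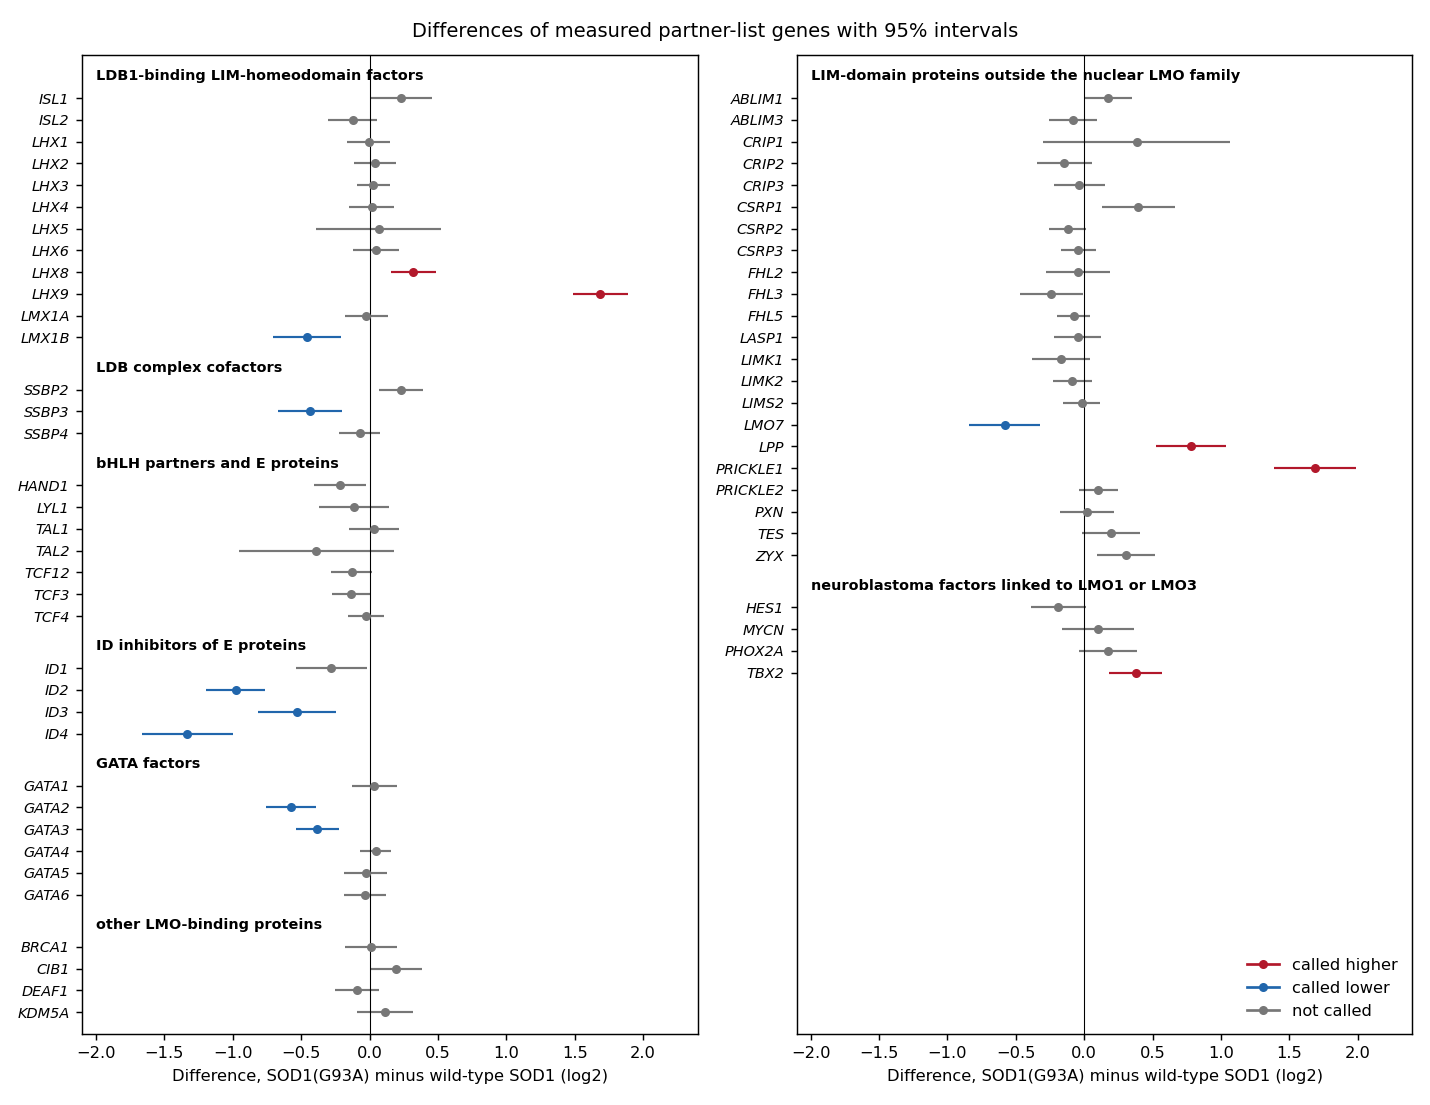
Differences (log2) of the 62 measured partner-list genes with 95% intervals, each gene drawn once under the first list that holds it, in red where called higher, in blue where called lower and in grey where not called. LHX9 and PRICKLE1 lie farthest to the right, both at 1.69, and ID4 lies farthest to the left at −1.33.

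LIM-homeodomain factors bind LDB1 through the same kind of LIM domain and so share it with LMO proteins. Of 12 measured, 3 were called, or 25%, beside 9.60% of all named genes. LHX9, a factor of limb, gonad and brain development, had levels of 7.75, 7.43, 7.78, 7.45 and 7.67 in SOD1(G93A) samples 3, 9, 12, 15 and 18, against 5.80, 5.88, 5.90, 6.15 and 5.93 in wild-type samples 2, 8, 11, 14 and 17. The groups were far apart. LHX9 rose by 1.69 (SE 0.09, adjusted p = 9.4e-07 by limma), or 3.22-fold. LHX8, a factor of forebrain cholinergic neurons, rose by 0.32 (SE 0.07, adjusted p = 0.0235 by limma) with both means below the lower quartile, at 3.58 in SOD1(G93A) cells and 3.26 in wild-type cells. LMX1B, a factor of monoaminergic neurons, fell by 0.46 (SE 0.11, adjusted p = 0.0307 by limma), and its groups overlapped. The LHX8 call was lost without SOD1(G93A) sample 15 or wild-type sample 2, 11 or 14 (adjusted p up to 0.0601 by limma). The LMX1B call was lost without SOD1(G93A) sample 3, 12 or 15 or wild-type sample 8, 11, 14 or 17 (adjusted p up to 0.0763 by limma). It was also lost in the unmoderated test (adjusted p = 0.064). The other 9 were not called. The largest difference among them was 0.23 (SE 0.10, adjusted p = 0.255 by limma) in ISL1, a factor of sympathetic neurons and a member of the noradrenergic neuroblastoma circuit.

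Of 3 measured cofactors of the LDB complex, SSBP3, which binds LDB proteins and shields them from degradation, fell by 0.44 (SE 0.11, adjusted p = 0.0295 by limma). Its means were 7.09 ± 0.23 in SOD1(G93A) cells and 7.52 ± 0.10 in wild-type cells (SD, n = 5 each), and SOD1(G93A) sample 18 at 7.42 lay inside the wild-type range. The call was lost without SOD1(G93A) sample 3, 9 or 15 or wild-type sample 8, 11, 14 or 17 (adjusted p up to 0.0734 by limma), and in the unmoderated test. Its relative SSBP2 had a difference of 0.23 (SE 0.07), not called (adjusted p = 0.0925 by limma) but called without SOD1(G93A) sample 12 (adjusted p = 0.0325 by limma).

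None of 7 bHLH partners and E proteins was called by limma, with or without a variance trend or array weights, or by the unmoderated test; 1, HAND1, had an unadjusted p under 0.05, with a difference of −0.22. The largest difference was −0.39 (SE 0.26, adjusted p = 0.490 by limma) in TAL2, a relative of TAL1, whose SD in wild-type arrays was 0.60. The E protein genes TCF3, TCF4 and TCF12, which supply the dimer partner of NHLH and TAL factors, had differences of −0.13, −0.03 and −0.13.

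The ID genes, whose products bind E proteins and keep them off DNA, all had differences below 0, and 3 of 4 were called. This is 75% of a list of only 4, beside 9.60% of all named genes. ID4 had levels of 5.27, 5.14, 5.69, 5.81 and 5.42 in SOD1(G93A) samples 3, 9, 12, 15 and 18, against 7.15, 6.63, 6.54, 6.78 and 6.90 in wild-type samples 2, 8, 11, 14 and 17. No SOD1(G93A) array reached the wild-type range. ID4 fell by 1.33 (SE 0.15, adjusted p = 0.000229 by limma), to 39.7% of the wild-type level. ID2 fell by 0.98 (SE 0.10, adjusted p = 0.000107 by limma), with means of 10.55 ± 0.23 in SOD1(G93A) cells and 11.53 ± 0.04 in wild-type cells (SD, n = 5 each). ID2 lies on chromosome 2 between SH3YL1 and ACYP2, a stretch in which earlier results of these data had shown neighbouring genes to be lower. MYCN, the neuroblastoma oncogene, lies in the same stretch and had a difference of 0.10 (SE 0.12, adjusted p = 0.753 by limma), not called. ID3 and ID4 lie on chromosomes 1 and 6. ID3 fell by 0.53 (SE 0.13, adjusted p = 0.0298 by limma), and its groups overlapped. Without SOD1(G93A) sample 9, 12 or 18 or wild-type sample 2, 11, 14 or 17 it was no longer called. Its adjusted p was then up to 0.0755 by limma. The ID3 call was also lost in the unmoderated test (adjusted p = 0.067) and with array weights (adjusted p = 0.0521 by limma). ID1 was not called, with a difference of −0.28 (SE 0.12, adjusted p = 0.228 by limma).

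**Figure D4:**
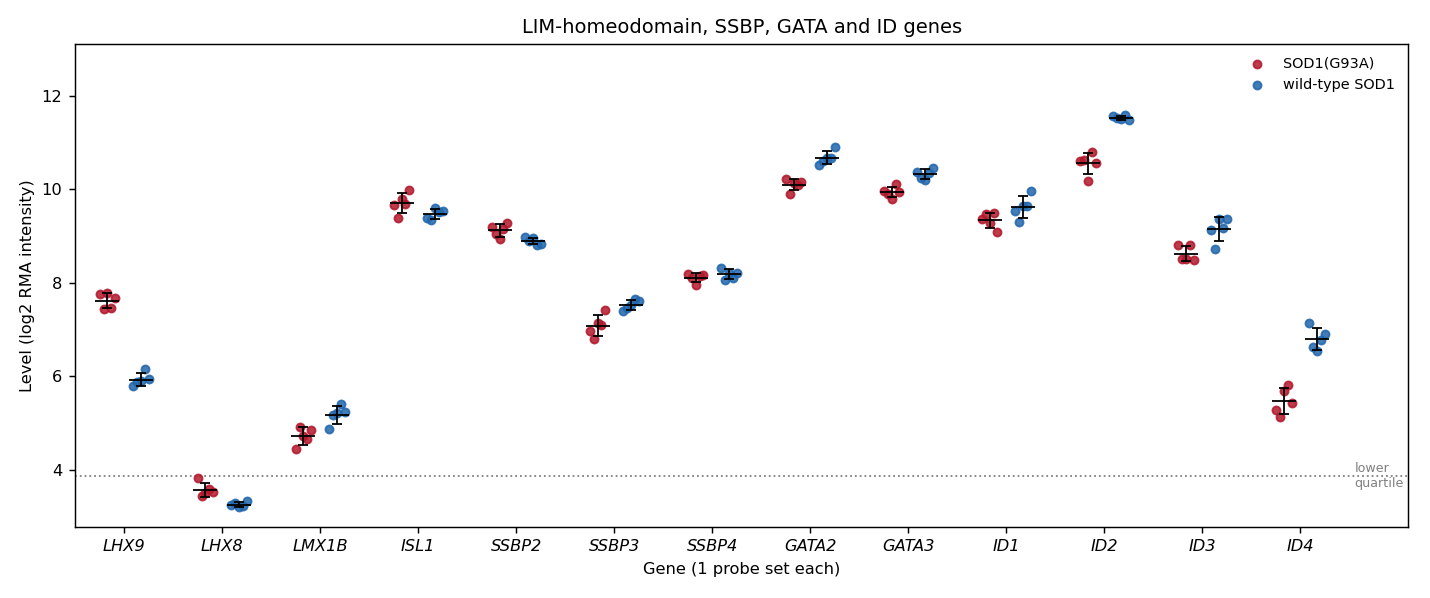
Levels (log2 RMA intensity) of LIM-homeodomain, SSBP, GATA and ID genes in each array, SOD1(G93A) left of wild-type SOD1, with black bars for the mean and SD (n = 5 each) and a dotted line at the lower quartile. LHX9 differs by 1.69 and ID4 by −1.33 with no overlap, while SSBP3, LMX1B and ID3 overlap.

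Of 6 GATA factors, 2 were called, both lower, or 33.3%, beside 9.60% of all named genes. GATA2 fell by 0.58 (SE 0.08, adjusted p = 0.00131 by limma) and GATA3 by 0.38 (SE 0.07, adjusted p = 0.00732 by limma); both are factors of sympathetic neurons. GATA3 had means of 9.94 ± 0.11 in SOD1(G93A) cells and 10.32 ± 0.11 in wild-type cells (SD, n = 5 each). The largest difference among the 4 others was 0.04 (SE 0.05) in GATA4. Of 6 measured neuroblastoma factors linked to LMO1 or LMO3, GATA3 was lower, and TBX2, a T-box factor of the noradrenergic circuit, rose by 0.38 (SE 0.09, adjusted p = 0.0246 by limma). The TBX2 call was lost without SOD1(G93A) sample 3, 12 or 15 or wild-type sample 2, 8 or 14 (adjusted p up to 0.0633 by limma).

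None of 4 other LMO-binding proteins was called by limma, with or without a variance trend or array weights, or by the unmoderated test; 1, the calcium-binding protein gene CIB1, had an unadjusted p under 0.05, with a difference of 0.20 (SE 0.08). Among 22 genes of LIM-domain proteins outside the nuclear LMO family, 2 rose and 1 fell, or 13.6%, beside 9.60% of all named genes. PRICKLE1, of planar cell polarity, rose by 1.69 (SE 0.14, adjusted p = 1.8e-05 by limma), and LPP, a focal adhesion protein of the zyxin family, by 0.78 (SE 0.12, adjusted p = 0.00166 by limma). LMO7, a large cytoskeletal and nuclear protein that shares the symbol but not the structure of LMO1 to LMO4, fell by 0.58 (SE 0.12, adjusted p = 0.0108 by limma). CSRP1 was the gene with the largest uncalled difference, 0.40 (SE 0.12, adjusted p = 0.0796 by limma), and was called without SOD1(G93A) sample 9 (adjusted p = 0.0245 by limma), among probe sets above the median level (0.0373) and with neighbouring sample numbers as blocks (0.0207).

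Position in the genome was not part of the selection. Over all named genes, 9.60% were called, 5.57% as lower. Of the 5 measured named genes on each side of LMO3 in the RefSeq gene order, 3 were called, all lower and all on the same side. MGST1, a microsomal glutathione transferase gene and the nearest of them, fell by 1.34 (SE 0.13, adjusted p = 6.8e-05 by limma), with means of 2.14 ± 0.14 in SOD1(G93A) cells and 3.48 ± 0.28 in wild-type cells (SD, n = 5 each), both below the lower quartile. EPS8, an actin-regulating gene, fell by 0.73 (SE 0.11, adjusted p = 0.00186 by limma) and PTPRO, a receptor tyrosine phosphatase gene, by 0.65 (SE 0.07, adjusted p = 0.00016 by limma). STRAP and DERA, which lie between EPS8 and MGST1, had differences of −0.09 and −0.12 and were not called, nor was any of the 5 genes on the other side, whose differences ran from −0.09 to 0.25. Of those 5, all but PLEKHA5 had means near 2 in both groups, far below the lower quartile, where a fall could not be seen. Beside LDB2, 1 of 10 neighbours was called, near the 9.60% of all named genes. This was PROM1, which encodes the membrane protein prominin and fell by 0.91 (SE 0.10, adjusted p = 0.000205 by limma). Its means were 3.23 in SOD1(G93A) cells, below the lower quartile, and 4.14 in wild-type cells.

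**Figure D5:**
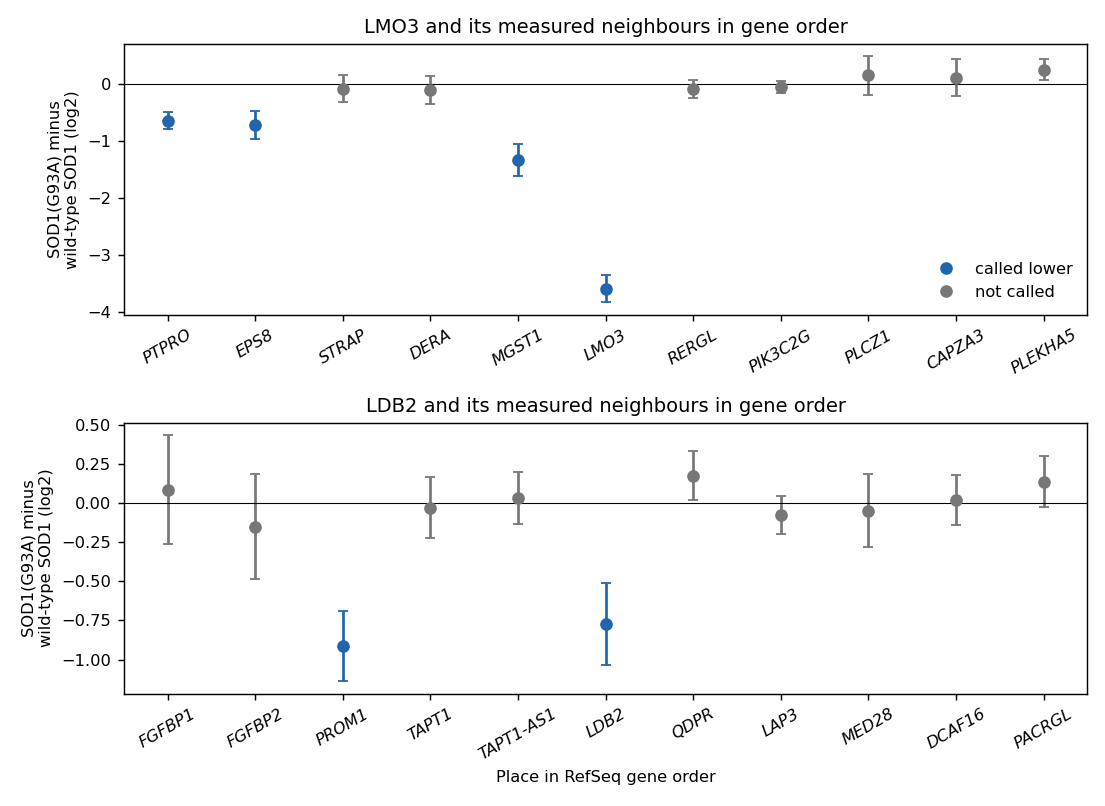
Differences (log2, with 95% intervals) of LMO3 (upper panel) and LDB2 (lower panel) and of the 5 measured named genes on each side in gene order, in blue where called lower and in grey where not called; the panels have different vertical scales. Lower genes stand to the left of LMO3 but not to its right, where all but PLEKHA5 are dim in both groups, and STRAP and DERA lie near 0.

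The genes whose levels followed those of LMO3 most closely over the 10 arrays were COL4A1, a basement membrane collagen gene (Pearson r = 0.997), SPRY1, an inhibitor of receptor tyrosine kinase signalling (r = 0.996), and PDE7B, a cyclic AMP phosphodiesterase gene (r = 0.996). Their differences were −2.13, −1.77 and −1.18. For LDB2 they were ECEL1, an endopeptidase-like gene of neurons (r = 0.979), the kinase gene RIPK2 (r = 0.968) and the transcription cofactor gene LBH (r = 0.967), with differences of −0.58, −1.08 and −1.27; LBH lies in the stretch of chromosome 2 that holds ID2. These coefficients describe 10 arrays in 2 separated groups, so they mostly restate the difference between the groups.

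Array medians ran from 6.26 to 6.34 in SOD1(G93A) arrays and from 6.28 to 6.30 in wild-type arrays. As RMA equalises the distributions of the arrays, this overlap is no check of the groups. SOD1 itself was not called, with overlapping groups and a difference of −0.23 (SE 0.07, adjusted p = 0.107 by limma), on a probe set that does not tell the constructs apart. The label of a noradrenergic neuroblastoma line was met by its markers: all 7 measured of 10 listed lay above the lower quartile, and their mean level ran from 9.69 to 9.87 in SOD1(G93A) arrays and from 9.32 to 9.52 in wild-type arrays, with 3 called higher and 1, GATA3, lower. Of 8 mesenchymal (S-type) markers 4 were higher and 1, SNAI2, was lower. Their mean level ran from 6.39 to 6.58 in SOD1(G93A) arrays and from 6.24 to 6.41 in wild-type arrays. SNAI2 had the largest difference of this list, −1.03 (adjusted p = 7.3e-05 by limma), while the 4 higher genes rose by 0.37 to 0.66. The called shares were 57.1% of the noradrenergic, 62.5% of the mesenchymal and 33.3% of the Schwann and glial markers, beside 9.60% of all named genes. Marker lists too were chosen with earlier results of these data known, so nothing is read from their shares. Of 3 Schwann and glial markers 1, S100B, was higher, while GFAP and SOX10 had differences of −0.03 and −0.04 and were not called, and the mean level of the 3 ran from 4.72 to 4.88 in SOD1(G93A) arrays and from 4.53 to 4.64 in wild-type arrays. Of 5 haematopoietic and 5 endothelial markers 0 were called by limma, with or without a trend or array weights, or by the unmoderated test, and 0 had an unadjusted p under 0.05. Mean levels of the haematopoietic markers ran from 3.70 to 3.80 in SOD1(G93A) arrays and from 3.67 to 3.86 in wild-type arrays, and those of the endothelial markers from 3.57 to 3.66 in SOD1(G93A) arrays and from 3.58 to 3.70 in wild-type arrays. The part of the cells marked by the noradrenergic and mesenchymal lists and by S100B in the LMO3, LDB2, ID and LHX9 differences was not tested.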

How the data were processed

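RNA of 10 arrays, 5 per group, was measured on Affymetrix exon arrays. The table deposited by the authors holds 1 log2 intensity per gene-level probe set; they used RMA, per the submitters' processing notes, and oneChannelGUI 1.6.5, per the labels. No source used here gives the genome build or filters, and the number of arrays limits the precision. Of 22011 probe sets, 14432 had 1 gene symbol in the platform annotation, 2408 had several and 5171 had none; symbols were updated through gene identifiers against RefSeq (GRCh38.p14), which lacked 28. Each of the 14232 named genes was represented by its brightest probe set over all arrays.

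Groups came from the sample titles. Differences were fitted with limma 3.58.1 (lmFit, eBayes; R 4.3.3) on all 10 arrays, 2-sided, unfiltered, and adjusted over all probe sets by Benjamini-Hochberg. The adjusted p of 0.05 is the false discovery rate the labels state. Their further limit, an absolute log2 fold change of 1, was not applied to calls. LDB2, with a difference of −0.77, does not reach that limit. Members also had an exact permutation test, whose smallest possible p is 0.00794. The code was tested on simulated data. The members, gene lists, alternatives and rule for named genes (the 8 members, called list genes, the largest uncalled difference per list, the 3 genes most like each called member, called neighbours) were chosen with earlier results of these data known; genes named beside these serve as marker or context values. Alternatives were other scaling, filters, moderation, array weights, blocks and omitted arrays.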

Additional observations from a re-analysis of the deposited data

Results flagged for a closer look

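LMO4 in wild-type SOD1 sample 14 had a level of 3.33, apart from the other 4 wild-type arrays, which ran from 3.50 to 3.56. The gap was 0.74 of the whole range of the group. Of 90 sets of 5 arrays looked at (45 named genes in 2 groups), this was the only set with such a gap, and chance gives such a gap in about 1 of 20. LMO4 was dim on all 10 arrays, under the lower quartile of 3.87.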

How the results depend on the processing

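LDB2 was called, and lower, under every alternative run for it, with differences of −0.84 to −0.71; the filter at the median level left it out. The LMO3 difference, a description, ran from −3.66 to −3.53. The other 6 genes were called by limma under none. Of these, LMO2 turned to 0.018 without samples 17 and 18 and ran from −0.081 to 0.010 with single arrays left out, and LDB1 ran from −0.039 to 0.036 (−0.014 without SOD1(G93A) sample 15, −0.039 without wild-type sample 2 and −0.0044 without wild-type sample 14); both are within the spread of the arrays. Partner-list genes lower in SOD1(G93A) cells numbered 5 among probe sets above the median, where fewer genes were tested, and 5 in the unmoderated test, for which the cause was not tested. With single arrays left out, called partner-list genes numbered 8 to 12, of which 3 to 6 were higher and 5 to 7 lower, and called probe sets 1274 to 1562. The groups share no sample number, so the labels pair no samples. A fit with neighbouring sample numbers as a block, a pairing that the labels do not state, gave 1213 called probe sets against 1643, ended the calls of ID3, LHX8, TBX2, TUB, HIPK3 and KCNIP2 and added that of CSRP1. The mean over several probe sets could not differ for the 8 genes, which have 1 each.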

Other observations

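Each of the 6 uncalled members had 10 neighbours in gene order. Of these, 2 were called beside LMO1, 2 beside LMO2, and 1 each beside LMO4, LDB1 and NHLH1. Over all named genes 9.60% were called, 4.03% higher and 5.57% lower, so nothing is read from these counts. Near LMO1 in gene order, CYB5R2, a cytochrome b5 reductase gene, rose by 1.41 (SE 0.14, adjusted p = 7.4e-05 by limma). Its means were 5.47 ± 0.30 in SOD1(G93A) cells and 4.06 ± 0.14 in wild-type cells (SD, n = 5 each). TUB, also near LMO1, fell by 0.23 (adjusted p = 0.0419 by limma). Near LMO2, KIAA1549L fell by 0.51 and HIPK3, a kinase gene, rose by 0.40. PEA15, near NHLH1, fell by 0.56 (SE 0.06), GBP4, near LMO4 and below the lower quartile, rose by 0.63, and KCNIP2, near LDB1, rose by 0.24. The calls of TUB, HIPK3 and KCNIP2 were lost without any 1 of 8, 6 and 7 arrays, with adjusted p up to 0.101, 0.0817 and 0.0843 by limma, and also with neighbouring sample numbers as blocks (0.0756, 0.0584 and 0.111). Of the 10 genes beside NHLH2, 0 were called by limma, and their differences ran from −0.22 to 0.15.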
